A study of Mus musculus with 21 samples.

Results

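The 37 genes described here are induced by type I interferons, the alpha and beta interferons that cells release when they sense foreign or misplaced nucleic acid. They were taken by name from a table of read counts per gene symbol, and 37 of 37 were found among its 41128 symbols. Type I interferon binds a receptor made of Ifnar1 and Ifnar2, and the kinases Jak1 and Tyk2 then activate a complex, ISGF3, which includes Stat2 and Irf9. ISGF3 binds a DNA element called the interferon-stimulated response element (ISRE) and switches on a large set of genes, many of which block steps of viral growth. In brain tissue, microglia, astrocytes, endothelial cells and neurons can all respond, as can immune cells that have entered from blood. Many of the same genes also respond to type III interferon and in part to interferon gamma, so the label names the best known inducer, and the levels alone do not tell which one acted.

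The tissue was striatum of wild-type mice, collected 3 weeks after injection of an AAV vector (adeno-associated virus, which carries a gene into cells and does not replicate), and its RNA was sequenced. Libraries are labelled for the cargo: Cas9, the genome-editing nuclease, GCas9, or the fluorescent protein GFP, or else WT. The labels do not explain the name GCas9; from the known work of this study it is Cas9 joined to a piece of Geminin, a protein degraded in part of the cell cycle, made to shorten the life of the nuclease. The 9 libraries of set A are 3 WT, 3 Cas9 and 3 GCas9, and the 12 of set B are 4 GFP, 4 Cas9 and 4 GCas9. The labels do not say whether the WT mice were injected. For age they disagree with themselves, with 3 weeks in 1 field and 3 months in a different one. A promoter, capsid, dose or guide RNA is not given in the sources used here. The 2 sets were scaled apart by the authors, so levels were compared within a set only. Nothing in the labels says that replicates are separate animals, and p values measure the spread between these libraries.

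Recovered reads on genes ran from 20337070 to 28045057 per library of set A and from 6091590 to 11069902 per library of set B. In set B every Cas9 library (at most 7694195) was shallower than every GFP library (at least 7894081) and every GCas9 library (at least 7809171). Defining transcripts (8 of 9 listed in the table) of striatal spiny neurons, the main neurons of this tissue, were abundant in all libraries, with summed levels of 201119 to 254709 over set A and from 84148 to 108455 over set B. Some libraries stood apart in choroid plexus markers (6 genes, led by Ttr, its chief secreted protein). Their sum was 293401 normalized counts in Cas9 replicate 1 and 11579 in GCas9 replicate 1 of set A, against 656 to 3456 in the other 7 libraries. For set B the sum was 10886 in Cas9 replicate 1, against 196 to 708 in the other 11. Median member differences without these libraries stand beside the comparisons within a set that include them, and not beside the difference between sets. All levels below are the authors' read counts divided by a scaling factor per library (normalized counts), listed in the order of the replicate numbers.

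The start regions of the members were searched for the DNA element to which ISGF3 binds. RefSeq promoters (build GRCm38.p6) were at hand for 27 of the 37 members and were searched on both strands for the ISRE core (GAAA, any 2 bases, GAAA) and for TTCNNNGAA, the core of the gamma-activated sequence (GAS), an element of the response to interferon gamma. The 7 sequences shown run 5′ to 3′ on the strand of the gene, with ISRE cores in capitals. Each ends at the base before the gene start of the RefSeq promoter. For some members, such as Ifit1, that start differs from the one in the GENCODE annotation. The sequences show 6 members that hold the core, and Cmpk2, the neighbour of Rsad2 whose level varied least between libraries. 
Isg15, chr4:156200819-156200918, minus strand: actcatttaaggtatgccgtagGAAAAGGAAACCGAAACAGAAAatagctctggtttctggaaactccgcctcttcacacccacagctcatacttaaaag
Ifit1, chr19:34640769-34640888, plus strand: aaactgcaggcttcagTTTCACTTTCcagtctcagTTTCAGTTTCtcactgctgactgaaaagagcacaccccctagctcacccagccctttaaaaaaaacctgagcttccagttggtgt
Ifit3, chr19:34583369-34583528, plus strand: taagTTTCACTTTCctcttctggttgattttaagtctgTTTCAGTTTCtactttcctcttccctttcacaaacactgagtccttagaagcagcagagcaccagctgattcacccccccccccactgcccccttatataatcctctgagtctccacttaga
Bst2, chr8:71537473-71537612, minus strand: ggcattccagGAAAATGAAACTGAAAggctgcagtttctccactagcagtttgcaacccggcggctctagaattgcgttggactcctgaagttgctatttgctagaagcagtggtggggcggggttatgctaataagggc
Oas1a, chr5:120907526-120907585, minus strand: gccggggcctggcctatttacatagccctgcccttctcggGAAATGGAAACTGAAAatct
Rsad2, chr12:26456453-26456582, minus strand: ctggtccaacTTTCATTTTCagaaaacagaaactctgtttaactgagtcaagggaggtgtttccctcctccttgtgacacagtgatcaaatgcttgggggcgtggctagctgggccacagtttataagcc
Cmpk2, chr12:26469085-26469214, plus strand: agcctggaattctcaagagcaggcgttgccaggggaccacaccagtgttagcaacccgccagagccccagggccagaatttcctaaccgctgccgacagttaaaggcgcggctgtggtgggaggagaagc
Isg15, Bst2 and Oas1a hold runs of the core that overlap each other, Ifit1 and Ifit3 hold a pair of cores on the opposite strand, and the Rsad2 sequence holds 1 core. No core is in the Cmpk2 window. Over the 250 bases before the start, 9 of the 27 members (33.3%) had at least 1 ISRE core, against 3.46% of 27025 genes with a promoter in the table. These 9 were Bst2, Ifit1, Ifit3, Isg15, Oas1a, Oas3, Rsad2, Stat2 and Trim30a. The longer form, the core with a further 2 free bases and GAAA after it, which contains the core, was in 3 of 27 members (11.1%) and in 0.104% of all genes. The GAS core was in 4 of 27 (14.8%) and in 8.13% of all genes. A match is a description of the letters and not a measured site, and the 18 members without an ISRE core in this window may hold one elsewhere or in another spelling.

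In set A the mean member level was close among the WT libraries and differed widely among libraries given Cas9 or GCas9. Averaged over the 37 members, the log2(level + 1) was 5.44, 5.50 and 5.25 in WT, 8.01, 5.98 and 7.57 in Cas9, and 7.14, 5.95 and 10.6 in GCas9. GCas9 replicate 3 was the highest of the 9 libraries for 37 of 37 members, and Cas9 replicate 1 the next highest for 37 of 37. Cas9 replicate 2 was the lowest of its group for 37 members and GCas9 replicate 2 the lowest of its group for 36. These 2 libraries sat a median of 0.52 and 0.43 on the log2 scale above the WT mean, whereas Cas9 replicate 1 sat 2.33 above it and GCas9 replicate 3 sat 4.89 above it. The level in GCas9 replicate 3 exceeded that of the next library by a median of 5.78-fold over the members, from 1.24-fold for Xaf1 to 15.8-fold for Isg15.

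In set B each of the 3 groups held high and low libraries, and the groups overlapped. The mean log2 level was 8.44, 8.22, 8.33 and 5.81 in GFP, 6.75, 8.54, 8.83 and 6.11 in Cas9, and 6.99, 8.13, 6.51 and 5.08 in GCas9. GFP replicate 4 was the lowest of its group for 37 of 37 members, Cas9 replicate 4 for 36 and GCas9 replicate 4 for 37. Cas9 replicate 3 was the highest of all 12 libraries for 23 members. GCas9 replicate 2 was the highest GCas9 library for 37 of 37 members, and GCas9 replicate 4 the lowest library of the set for 31. The GFP libraries replicate 1 to 3 lay close together.

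**Figure D1:**
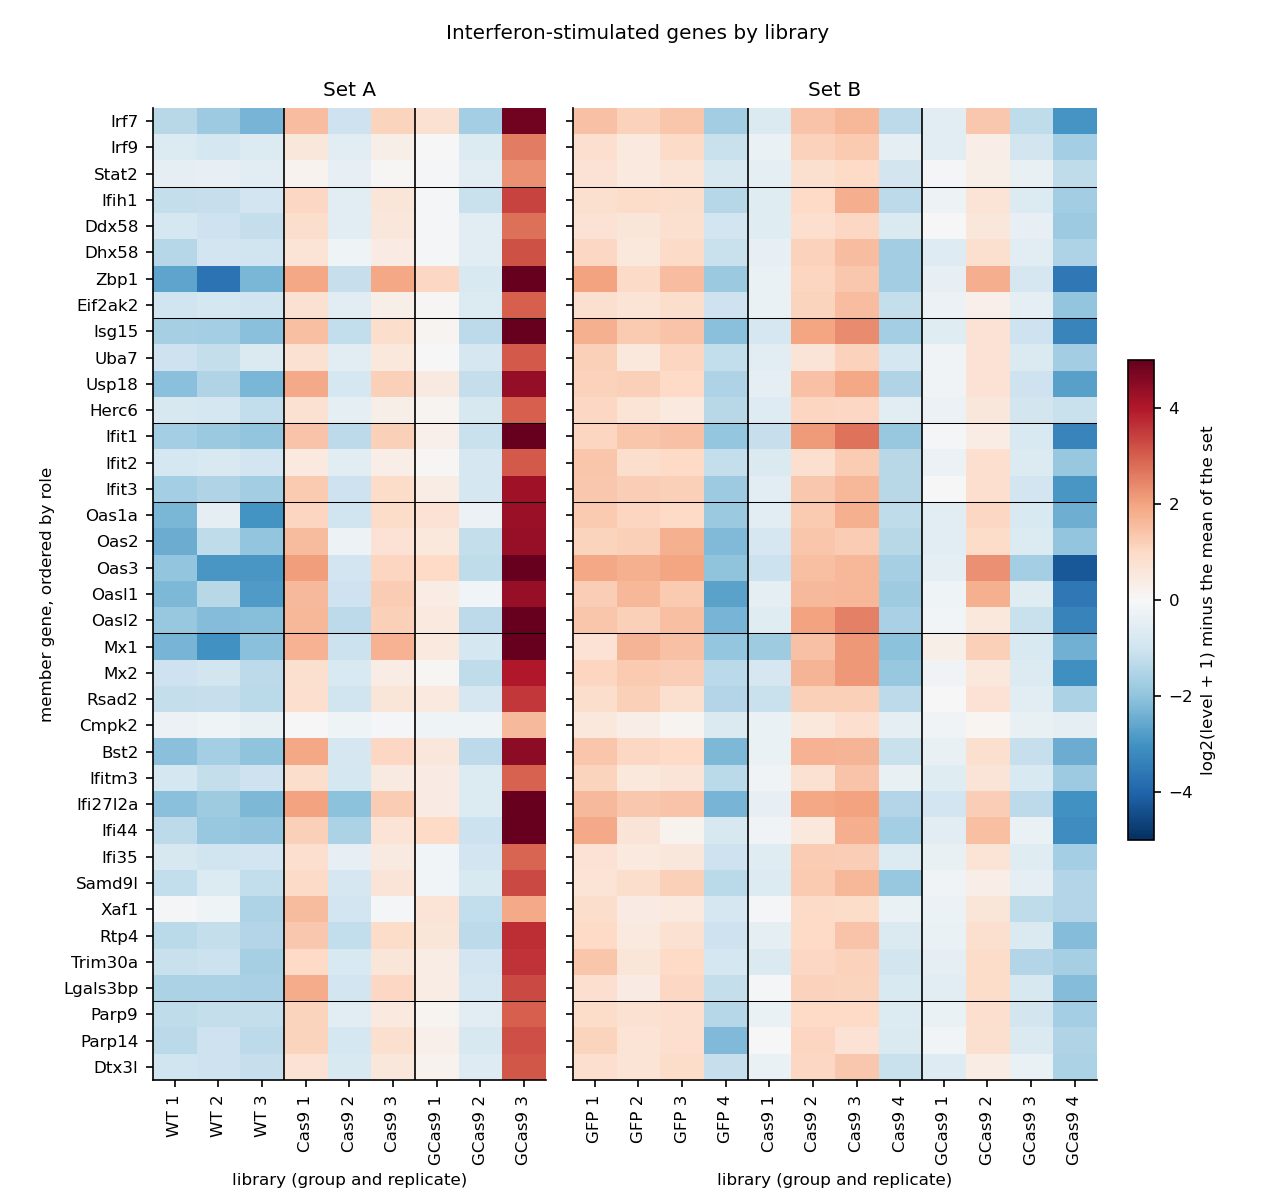
Each row is a member, grouped by role from signalling factors at the top to the PARP group at the bottom, and each column a library; colour gives log2(level + 1) minus the mean of that gene over the libraries of its set, with the colour scale ending at 5 in either direction. Whole columns share a colour: GCas9 replicate 3 is high in set A, and GFP replicate 4, Cas9 replicate 4 and GCas9 replicate 4 are low in set B.

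The spread of these genes among libraries of 1 group was far wider than that of other genes wherever a virus was named. The median distance between the highest and the lowest library of a group was 0.39 on the log2 scale in WT, 1.85 in Cas9 and 4.48 in GCas9 of set A. In set B it was 2.58 in GFP, 2.78 in Cas9 and 2.73 in GCas9. Over all 15924 genes tested in set A the same median was 0.19, 0.28 and 0.24, and over the 15428 genes tested in set B it was 0.35, 0.43 and 0.42. The spread was above the 95th percentile of all genes for 5 of 37 members in WT, 24 in Cas9 and 37 in GCas9 of set A, and for 35 in each group of set B. These distances describe the libraries, and libraries of 1 group carry the same label.

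**Figure D2:**
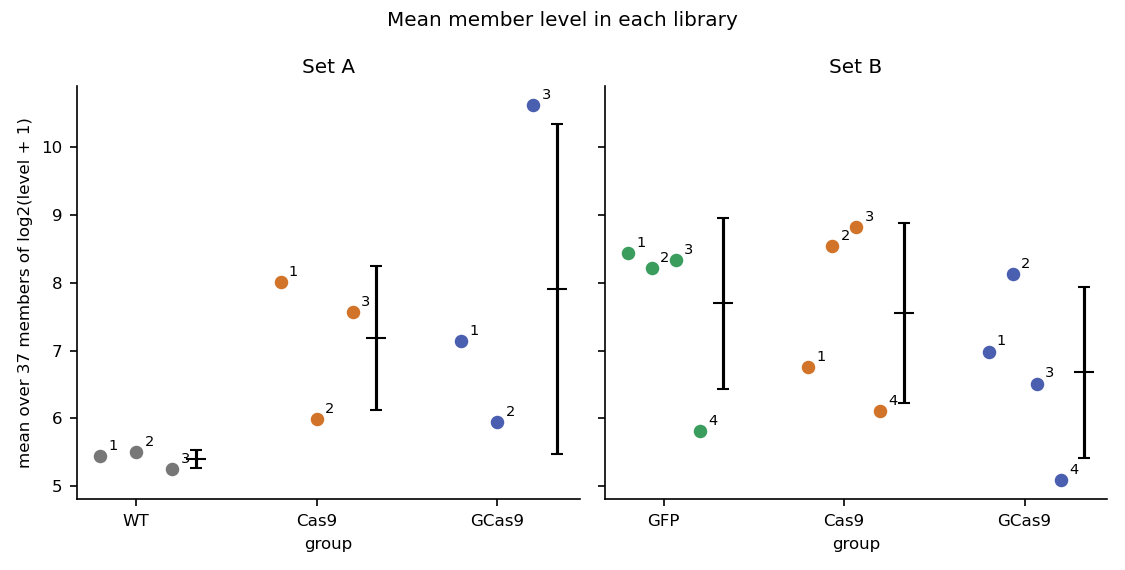
Points are libraries, numbered by replicate, placed by the mean over 37 members of log2(level + 1); the bar beside each group is its mean with the SD (n = 3 in set A, n = 4 in set B). The 3 WT points lie between 5.25 and 5.50, and the GCas9 points of set A span 5.95 to 10.6.

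The signalling factors carry the interferon signal to the nucleus. Irf7, which drives the interferon genes themselves, was at 44.3, 32.8 and 22.7 in WT, 341, 56.2 and 254 in Cas9 and 199, 35.7 and 3380.4 in GCas9 of set A. GCas9 replicate 2 lay within the WT range and Cas9 replicate 2 just above it. In set B Irf7 was at 1005, 805, 945 and 107 in GFP, 217, 977, 1127 and 146 in Cas9 and 249, 918, 148 and 46.2 in GCas9. Each group of set B thus held both high and low libraries. Irf9, the DNA-binding part of ISGF3, was present throughout, at 343, 298 and 343 in WT, 804, 373 and 665 in Cas9 and 555, 338 and 3246 in GCas9 of set A. In set B its levels were 843, 663, 927 and 219 in GFP, 377, 1063, 1192 and 341 in Cas9 and 330.1, 599, 254 and 147 in GCas9. Stat2, a subunit of ISGF3, was at 857, 876 and 796 in WT, 1322, 892 and 1213 in Cas9 and 1086, 810.4 and 5663 in GCas9 of set A. Stat2 thus varied little outside GCas9 replicate 3. In set B it was at 963, 814, 938 and 332 in GFP, 421, 1029, 1156 and 306 in Cas9 and 553, 726, 447 and 244 in GCas9.

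Among the sensors, Ifih1 (MDA5), Ddx58 (RIG-I) and Dhx58 (LGP2) are helicases that bind foreign RNA in the cytosol. Levels of Ifih1 were 53.9, 55.2 and 62.3 in WT, 254, 84.8 and 189 in Cas9 and 115, 56.2 and 1293 in GCas9 of set A. They were 190.5, 205, 199 and 39.1 in GFP, 70.01, 215, 381 and 42.98 in Cas9 and 90.6, 172, 66.6 and 31.9 in GCas9 of set B. Ddx58 ranged from 97.9 to 1508 over set A and from 46.2 to 336 over set B, and Dhx58 from 24.1 to 616 and from 20.9 to 211. Zbp1, a sensor of nucleic acid in the Z form that can start cell death, had the widest range of the members in set A. It was almost unread in WT, at 2.89, 0.86 and 3.95, against 89.4, 9.86 and 89.01 in Cas9 and 47.9, 12.97 and 1156 in GCas9. In set B it was at 279, 133, 197 and 18.2 in GFP, 53.1, 142, 176 and 19.6 in Cas9 and 50.7, 243, 36.9 and 4.78 in GCas9. For Zbp1 the Cas9 and GCas9 libraries of set A were all above the 3 WT libraries, also in the libraries with the lowest member levels. Eif2ak2 (PKR), a kinase that halts translation when it meets double-stranded RNA, was at 129.9, 141 and 129.5 in WT, 444, 176 and 317 in Cas9 and 268, 159 and 2044 in GCas9 of set A. For set B the values of Eif2ak2 were 170.5, 159.9, 184 and 48.2 in GFP, 77.9, 213, 289 and 42.98 in Cas9 and 81.4, 116, 69.8 and 24.7 in GCas9.

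Isg15 encodes a small ubiquitin-like protein that Uba7 activates, Herc6 attaches to other proteins in the mouse, and Usp18 removes. Counts of Isg15 were 20.2, 19.8 and 14.8 in WT, 189, 27.6 and 123 in Cas9 and 73.8, 25.9 and 2991 in GCas9 of set A. In set B they were 627, 452, 491 and 41.9 in GFP, 102, 717, 951 and 55.3 in Cas9 and 119.8, 300.5, 89.1 and 17.5 in GCas9. The GCas9 group mean of set A (1030.4 ± 1698, SD, n = 3) therefore rests almost wholly on replicate 3. Usp18, which also dampens signalling at the interferon receptor, followed the same order, at 10.6, 16.4 and 8.90 in WT, 179.9, 25.6 and 109 in Cas9 and 65.2, 20.5 and 1039 in GCas9. Its set B levels were 550.4, 569, 489.9 and 83.7 in GFP, 182, 689, 942 and 87.2 in Cas9 and 218, 405, 119.6 and 36.6 in GCas9. Uba7 ran from 99.1 to 1955 in set A and from 62.9 to 479.9 in set B, and Herc6 from 81.1 to 1494 and from 48.2 to 267.

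The IFIT proteins bind viral RNA that lacks the methyl marks of host caps. Ifit1 was at 36.6, 32.8 and 30.7 in WT, 329, 48.3 and 280.2 in Cas9 and 148, 56.2 and 4237 in GCas9 of set A. It reached its set B maximum in Cas9, with 1094, 1382, 1454 and 136 in GFP, 235, 2305, 3444 and 139 in Cas9 and 497, 685, 309.8 and 52.6 in GCas9. The Cas9 libraries alone thus spanned 139 to 3444. Ifit3, which steadies Ifit1 on RNA, was at 84.7, 96.5 and 81.1 in WT, 686, 135 and 518 in Cas9 and 357, 150.2 and 5141 in GCas9 of set A. In set B Ifit3 was at 1721, 1572, 1535 and 188 in GFP, 454, 1692, 2116 and 254 in Cas9 and 669, 1203, 346 and 86.8 in GCas9. Ifit2 spanned 123 to 2024 in set A and reached 873 in set B, in GFP replicate 1. Ifit2, Ifit3 and Ifit1 are neighbours on chromosome 19 (GENCODE annotation of GRCm38), and reads of Ifit3 may be shared with its near copy Ifit3b, so its level is uncertain to that extent.

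The OAS enzymes make short oligoadenylates that switch on RNase L, which cuts RNA. Oas1a was at 3.85, 15.5 and 1.98 in WT, 47.8, 10.8 and 43.5 in Cas9 and 37.4, 18.4 and 473 in GCas9 of set A, so WT replicate 2 was above Cas9 replicate 2. Its levels in set B were 164, 139, 131 and 17.3 in GFP, 44.04, 164, 225 and 27.01 in Cas9 and 44.5, 135, 38.5 and 11.2 in GCas9. Oas1a has near-identical copies beside it, among which reads can be split. Oasl2, a relative of the OAS enzymes, had the next library far below GCas9 replicate 3, with 63.5, 53.4 and 54.4 in WT, 758, 97.6 and 556 in Cas9 and 337, 96.2 and 10522 in GCas9. In set B it was at 1827, 1599, 1978 and 136 in GFP, 456, 2776, 3934 and 225 in Cas9 and 629.5, 984, 320.2 and 67.7 in GCas9. Oas3 was nearly unread where the family was low: WT held 0.96, 0 and 0, Cas9 31.2, 2.96 and 15.2 and GCas9 14.4, 2.16 and 435 in set A. In set B Oas3 was at 70.5, 63.3, 73.4 and 3.64 in GFP, 7.90, 52.8, 59.01 and 4.91 in Cas9 and 12.3, 91.5, 4.82 and 0 in GCas9. Oasl1, which limits translation of Irf7, was at 1.92, 4.31 and 0.99 in WT, 42.6, 5.92 and 32.4 in Cas9 and 17.3, 11.9 and 286 in GCas9 of set A. Oas2 ran from 3.85 to 549.6 in set A and from 7.28 to 129.6 in set B.

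**Figure D3:**
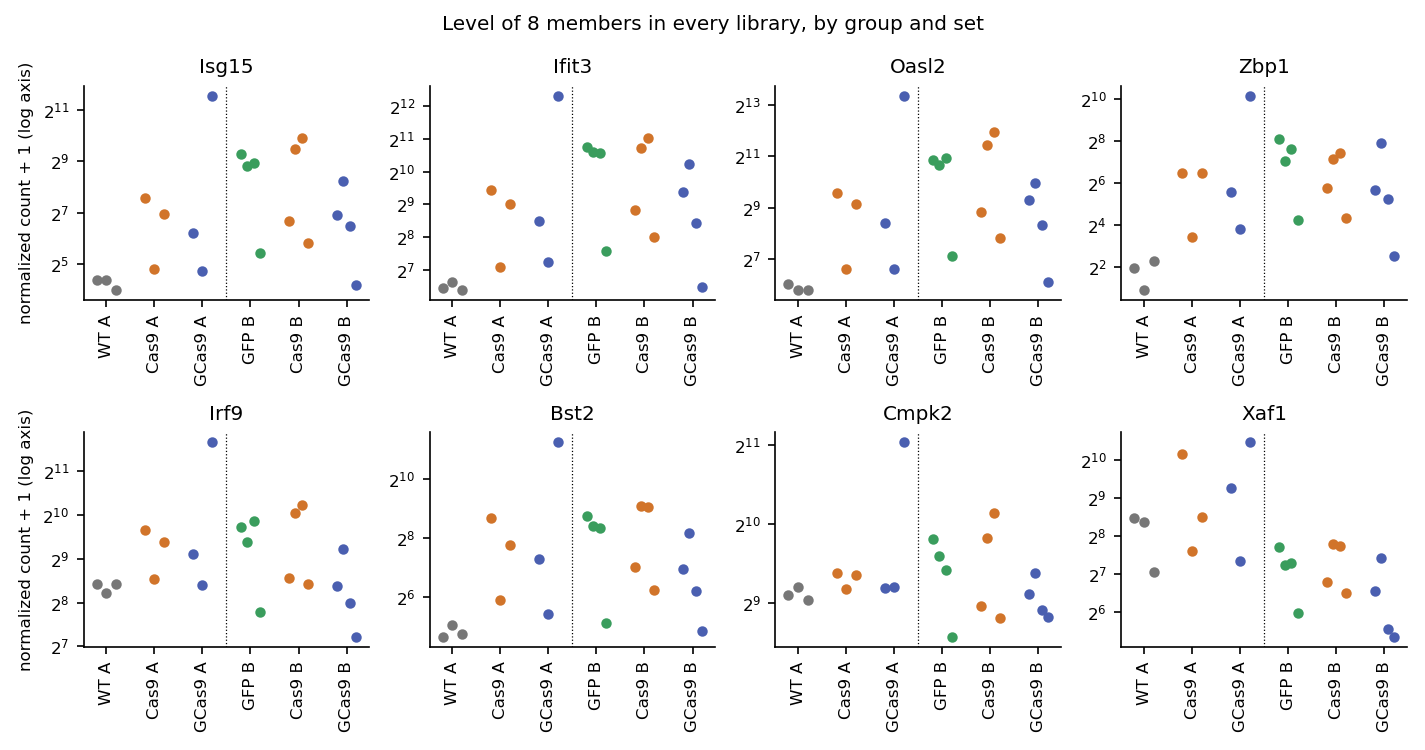
Each panel shows 1 member, each point a library, with normalized counts + 1 on a log axis of base 2 and set A left of the dotted line. Isg15 spans 14.8 to 2991 in set A, Cmpk2 stays within 523 to 2099 there, and Xaf1 is higher in WT replicates 1 and 2 than in Cas9 replicate 2.

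The largest role group, with 14 members, holds membrane proteins and other effectors. Mx1, a GTPase that traps viral parts, was at 4.81, 2.59 and 5.93 in WT, 97.7, 12.8 and 96.1 in Cas9 and 40.3, 15.1 and 1316 in GCas9 of set A. In set B Mx1 was at 55.8, 112, 94.4 and 8.19 in GFP, 9.03, 94.5, 155 and 7.37 in Cas9 and 42.2, 77.5, 19.3 and 5.58 in GCas9. Rsad2 (viperin), an enzyme that makes a chain-ending nucleotide, was at 43.3, 44.8 and 38.6 in WT, 181, 49.3 and 153 in Cas9 and 139, 55.1 and 1176 in GCas9 of set A. Rsad2 levels in set B were 219, 268, 206 and 41.9 in GFP, 54.2, 267, 269 and 46.7 in Cas9 and 117, 195, 81.1 and 39.03 in GCas9. Its neighbour Cmpk2, a nucleotide kinase, begins 12751 bases away on chromosome 12 and is read from the other strand. Cmpk2 was already at 548, 589.6 and 523 in WT, with 668, 578 and 652 in Cas9 and 584, 589.98 and 2099 in GCas9 of set A. It varied least of the members in GCas9 of both sets, with 899.8, 771, 683 and 379 in GFP, 498, 903, 1124 and 448 in Cas9 and 554, 668, 479.9 and 452 in GCas9 of set B.

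Bst2 (tetherin) holds budding virus at the cell surface, and Ifitm3 blocks fusion of virus with the cell. Bst2 was at 24.1, 31.9 and 25.7 in WT, 407, 58.2 and 217 in Cas9 and 156, 42.1 and 2398 in GCas9 of set A. All 6 libraries given a nuclease were above the 3 WT libraries for this gene. In set B Bst2 was at 422, 333, 321 and 33.7 in GFP, 128, 539, 528 and 74.9 in Cas9 and 124, 285, 73.03 and 27.9 in GCas9. Ifitm3 was at 144, 116 and 131 in WT, 492, 145 and 368 in Cas9 and 361, 165 and 2106 in GCas9 of set A. For set B Ifitm3 stood at 1357, 917, 982 and 246 in GFP, 558, 1084, 1713 and 485 in Cas9 and 409, 982, 371 and 176 in GCas9. The lowest Cas9 library, replicate 4, was above GFP replicate 4 and above 3 of the 4 GCas9 libraries.

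Ifi27l2a, a short membrane protein, was at 6.74, 8.62 and 5.93 in WT, 131, 6.90 and 78.9 in Cas9 and 43.1, 19.4 and 1235 in GCas9 of set A. Cas9 replicate 2 lay within the WT range here. In set B Ifi27l2a was at 478, 402, 417 and 30.03 in GFP, 116, 592, 634 and 56.5 in Cas9 and 79.1, 364, 61.8 and 18.3 in GCas9. Lgals3bp, a secreted glycoprotein, was at 244, 239 and 231 in WT, 2589, 369.8 and 1499 in Cas9 and 944, 408 and 7213 in GCas9 of set A, with no Cas9 or GCas9 library in the WT range. Its levels in set B were 2041, 1516, 2342 and 503 in GFP, 1089, 2558, 2438 and 666 in Cas9 and 781, 2134, 661 and 254 in GCas9. Ifi44 was at 14.4, 9.48 and 8.90 in WT, 86.3, 11.8 and 60.7 in Cas9 and 75.7, 17.3 and 1225 in GCas9 of set A. Trim30a, a restraint on inflammatory signalling, was at 244, 143, 189 and 50.05 in GFP, 55.3, 193, 207 and 49.1 in Cas9 and 66.8, 178, 32.9 and 28.7 in GCas9 of set B. Mx2, Ifi35, Samd9l and Rtp4 were also highest in GCas9 replicate 3 of set A, with ranges there of 34.6 to 1396, 42.2 to 650.3, 61.3 to 1449 and 24.7 to 938.

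Xaf1, which promotes apoptosis, kept an order of its own in set A. Its levels were 356, 330.2 and 131 in WT, 1144, 195 and 362 in Cas9 and 618, 161 and 1415 in GCas9. WT replicate 3 was far below the other 2 WT libraries, and WT replicates 1 and 2 were above Cas9 replicate 2 and GCas9 replicate 2. In set B Xaf1 was at 208, 149.6, 157 and 61.9 in GFP, 109.5, 219.6, 212 and 89.6 in Cas9 and 92.9, 172, 46.5 and 39.8 in GCas9, an order close to that of the other members.

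Parp9 and Dtx3l form a complex that adds ADP-ribose and ubiquitin to proteins, and Parp14 adds ADP-ribose. Parp14 was at 78.9, 97.4 and 82.1 in WT, 435, 109 and 358 in Cas9 and 244, 116 and 1888 in GCas9 of set A. Every Cas9 and GCas9 library was above WT. In set B Parp14 was at 163, 119.7, 135 and 15.5 in GFP, 74.5, 159.8, 124 and 44.2 in Cas9 and 68.3, 130.3, 44.9 and 25.5 in GCas9. Parp9 ran from 52.0 to 1010.0 in set A and Dtx3l from 60.3 to 1185. The 2 genes overlap by 682 bases on opposite strands of chromosome 16, and whether counting used the strand is not given in the sources used here, so reads in the overlap cannot be told apart. The same holds for Dhx58, Ifi35, Oasl1 and the other members with an annotated antisense or overlapping gene.

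The first comparison sets libraries given AAV with Cas9 beside WT tissue. Injection, virus and cargo cannot be told apart in the comparisons with WT. In set A the members were higher in Cas9, with a median log2 difference of 1.56 over 37 members against -0.00 over all genes tested, and 37 of 37 differences were above 0, as were 49.1% of all genes. The 3 Cas9 libraries were above the 3 WT libraries for 30 of 37 members, against 10.7% of all genes. Zbp1 had the largest difference, 3.76 ± 1.49 (SE, n = 3 and 3), and Cmpk2 the smallest, 0.19. The OAS family had the highest median by role (2.58) and the signalling factors the lowest (0.83). No member passed limma at an adjusted p below 0.05, a bar that 0.00628% of 15924 genes passed. At an unadjusted p below 0.05 it was 2 of 37 members, Zbp1 (adjusted p = 0.41) and Oasl1 (2.78 ± 1.17, adjusted p = 0.41), against 6.17% of all genes, higher. Mx1 (3.28 ± 1.47) and Lgals3bp (2.24 ± 1.00) came next, both with an adjusted p of 0.42, and Isg15 differed by 2.20 ± 1.499 (adjusted p = 0.55). By edgeR on the recovered reads 0 members passed (0% of all genes) and 3 had an unadjusted p below 0.05 (7.5%, higher). By DESeq2 0 passed (0.728%), 10 had an unadjusted p below 0.05 (7.72%, higher), and 6 members had no adjusted p. Weighting libraries by their scatter (limma array weights) put 20 of 37 members past the bar, where 16.1% of all genes passed. Without GCas9 replicate 3, which is in neither group but shares the estimate of the spread, 35 of the 36 members tested had an unadjusted p below 0.05 (9.15% of all genes) and 0 passed. Oas3, with a mean of 8.35 without that library, was too low to be tested there. Leaving out Cas9 replicate 1, the library with the high choroid plexus sum, left a median of 1.199.

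For GCas9 against WT in set A, which uses the same WT libraries, the median log2 difference of the members was 2.28 and 37 of 37 were above 0 (49.9% of all genes). The 3 GCas9 libraries were above all 3 WT libraries for 25 of 37 members (9.16% of all genes). Zbp1 again differed most, by 4.81 ± 1.49, followed by Oas3 (4.47), Mx1 (4.19 ± 1.47) and Oasl1 (3.70 ± 1.17), and Cmpk2 least, by 0.70. Oas3 reached the mean of 10 needed for a test only through GCas9 replicate 3, so its place in this order rests on that library. Its set A mean without it was 8.35. Oas1a differed by 3.51 ± 1.17 and Isg15 by 3.25 ± 1.499. The group medians by role ran from 1.37 for the signalling factors to 3.60 for the OAS family. No member passed limma (0.00628% of genes did), and the smallest adjusted p among members was 0.72. At an unadjusted p below 0.05 it was 22 of 37, against 4.44% of all genes, higher. In DESeq2 10 of the 31 members with an adjusted p passed (6 had none), where 1.37% of all genes did, and 29 of 37 had an unadjusted p below 0.05 (6.42%, higher). In edgeR 0 members passed (0.00628% of all genes) and 35 had an unadjusted p below 0.05 (6.17%, higher), with a median difference of 3.48. The replicate numbers met the pairing criterion for these 2 groups, and with the replicate as a block 0 members passed (0.0126% of all genes) and 29 had an unadjusted p below 0.05 (5.86%, higher). Without GCas9 replicate 3 the median was 0.99 and 7 of 36 members had an unadjusted p below 0.05 (2.16% of all genes). It was 2.55 without GCas9 replicate 1.

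Direct comparison of GCas9 with Cas9 in set A gave no separation. The median log2 difference was 0.65, with 37 of 37 members higher in GCas9 (54.3% of all genes) and 0 of 37 without overlap (4.4% of all genes in that direction). Ifi44 differed most (1.55 ± 1.34), Oas1a by 1.26 ± 1.17, Isg15 by 1.05 ± 1.499 and Xaf1 least (0.27). Cmpk2 (0.51 ± 0.42, adjusted p = 0.94) had the smallest p of the members. By limma 0 members passed (0% of 15924 genes did) and 0 had an unadjusted p below 0.05 (2.38%, higher). The counts by edgeR were 0 (0%) and 1 (2.02%, higher). DESeq2 gave no adjusted p for the members (0.0314% of all genes passed) and an unadjusted p below 0.05 for 2 (2.11%, higher). The median was 1.60 by edgeR and 1.62 by DESeq2. The direction depended on single libraries: without GCas9 replicate 3 the median was -0.61 and 36 of the 36 members tested were lower in GCas9, and without Cas9 replicate 2 it was 0.11. It was 1.07 without Cas9 replicate 1, 1.01 without GCas9 replicate 1 and 1.70 without GCas9 replicate 2. With array weights the median was -0.28 and 29 of 37 were lower.

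In set B, where GFP virus was the control, Cas9 and GFP did not differ in these genes beyond the spread of their libraries. The median log2 difference was -0.09, 11 of 37 members were higher in Cas9 (48.7% of all genes), and 0 of 37 had groups without overlap in either direction (2.63% of all genes higher and 2.05% lower). Differences ran from -0.81 for Oas3 to 0.20 for Bst2, and Isg15 differed by -0.15 ± 1.05 (SE, n = 4 and 4). Ifit2 had the smallest p, at -0.52 ± 0.68 (adjusted p = 0.93). By limma 0 members passed (0% of 15428 genes did) and 0 had an unadjusted p below 0.05 (3.23% of all genes higher and 3.01% lower). Both counts were also 0 by edgeR (0% adjusted, and 3.17% higher and 2.94% lower unadjusted) and by DESeq2 (0.0648%, and 2.9% and 2.5%), in each of which the median was 0.03. The sign of the median followed single libraries: it was -0.79 without GFP replicate 4, -0.45 without Cas9 replicate 2 and -0.57 without Cas9 replicate 3. It was 0.38 without Cas9 replicate 4, 0.15 without Cas9 replicate 1, and 0.11, 0.06 and 0.11 without GFP replicates 1, 2 and 3.

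GCas9 was lower than GFP in set B by a median of 0.96 on the log2 scale (difference -0.96), and 37 of 37 members were lower, as were 50.9% of all genes. The groups overlapped for 37 of 37 members, and 0 had all GCas9 libraries below all GFP libraries (1.66% of all genes did). Oas3 differed most (-1.95) and Cmpk2 least (-0.29). Trim30a differed by -1.202 ± 0.64, Irf9 by -0.98 ± 0.53, Xaf1 by -0.83 ± 0.47 and Eif2ak2 by -0.96 ± 0.61, with adjusted p values of 0.79 to 0.81. Isg15 differed by -1.66 ± 1.05. None of the 37 passed limma (0% of 15428 genes did), and 0 had an unadjusted p below 0.05 (2.76%, lower). Both counts were 0 also by edgeR (0% and 2.77%) and by DESeq2 (0.266% and 2.71%). Without GFP replicate 4 the median was -1.45 and 27 of 37 members had an unadjusted p below 0.05 (4.26% of all genes, lower), and without GCas9 replicate 4 it was -0.48 with 0 of 37 (2.16%, lower). The median was -1.44 without GCas9 replicate 2.

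Between GCas9 and Cas9 in set B the members were lower in GCas9 by a similar amount. The median difference was -0.84 with 37 of 37 below 0 (49.4% of all genes) and 0 of 37 without overlap (0.797% of all genes in that direction). Oasl2 (-1.59) and Ifi27l2a differed most, and Rsad2 least (-0.33). Irf9 differed by -1.11 ± 0.53, Xaf1 by -0.98 ± 0.47, Ifitm3 by -1.06 ± 0.57 and Lgals3bp by -1.002 ± 0.62, each with an adjusted p of 0.99. Isg15 differed by -1.51 ± 1.05. By limma 0 members passed (0% of genes did) and 0 had an unadjusted p below 0.05 (1.57%, lower). The counts at an unadjusted p were 1 by edgeR (1.45%) and 0 by DESeq2 (1.31%), with 0 adjusted in both (0% of all genes). The replicate numbers met the pairing criterion for this pair of groups, and with the replicate as a block 19 of 37 members had an unadjusted p below 0.05 (2.15% of all genes, lower), while 0 passed after adjustment. Without GCas9 replicate 4 the median was -0.38 and without GCas9 replicate 2 it was -1.37. It was -0.52 without Cas9 replicate 2, -0.50 without Cas9 replicate 3 and -1.11 without Cas9 replicate 1, the library with the high choroid plexus sum.

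**Figure D4:**
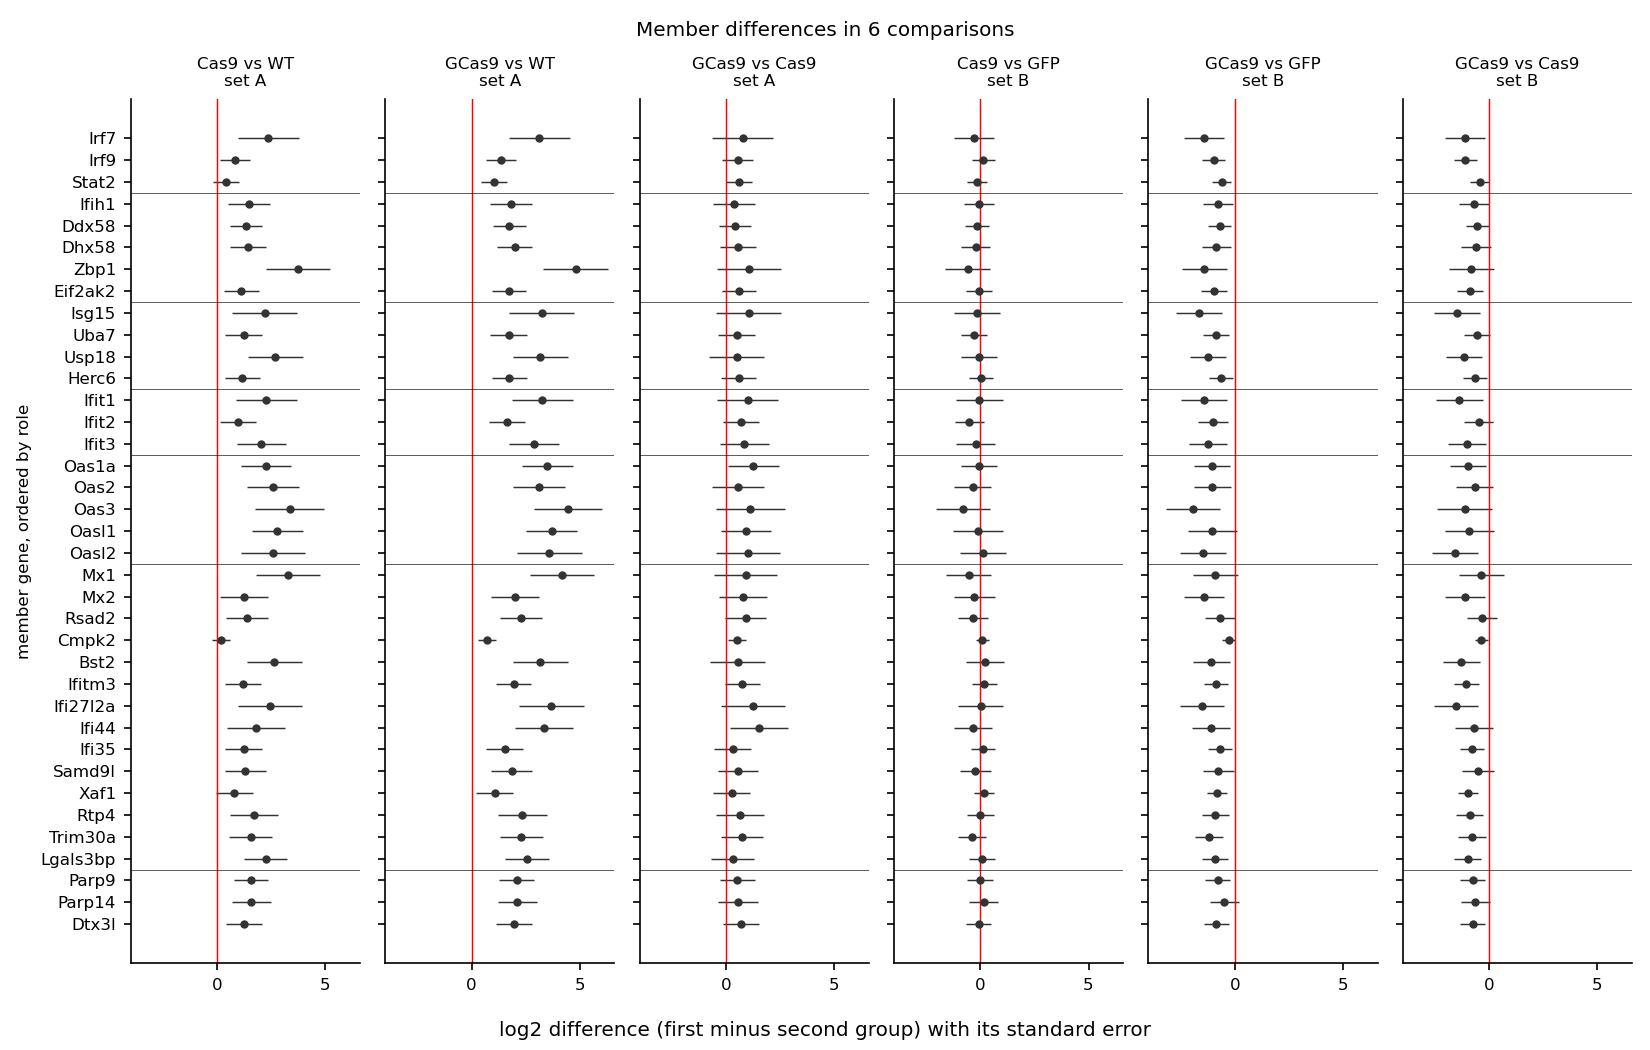
Each panel is a comparison, each point the log2 difference of a member with its standard error (n = 3 libraries a group in set A, 4 in set B), and the red line marks no difference. Points lie right of the line in the 3 panels of set A and left of it for GCas9 in set B, and on both sides of it for Cas9 against GFP.

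GCas9 against Cas9 thus had opposite signs in the sets, and the difference between the sets was itself tested. GCas9 minus Cas9 was lower in set B than in set A by a median of 1.51 (difference -1.51), with 37 of 37 below 0 (50.6% of all genes). Ifi27l2a differed most (-2.79) and Cmpk2 least (-0.88 ± 0.54), Irf9 by -1.65 ± 0.94, Ifitm3 by -1.82 ± 1.04 and Isg15 by -2.56 ± 1.94. In limma 0 of 37 members passed (0% of 16094 genes did), 0 had an unadjusted p below 0.05 (2.05%, lower), and the adjusted p was 0.99 for each. By edgeR 22 members had an unadjusted p below 0.05 (2.59% of all genes, lower), as by DESeq2 (2.23%), and 0 passed in either (0% of all genes), with medians of -2.48 and -2.46. Without GCas9 replicate 3 of set A the median was -0.22, without GCas9 replicate 2 of set A -2.44 and without Cas9 replicate 2 of set A -0.91. The sets also differ in depth, in control and in scaling, which cannot be told apart from the set.

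The interferon genes themselves were close to silent. Of 18 type I genes, 12 had no read in any of the 21 libraries, and the other 6 had 18 reads in all, with at most 2 in any library. Ifnb1, the beta interferon, had 8 reads in all and at most 2 in a library, in GCas9 replicate 3 of set A. The type III genes Ifnl2 and Ifnl3 had 0 reads. Ifng (interferon gamma) had 19 reads, of which 9 were in GCas9 replicate 3 of set A. None of these 21 genes reached the level needed for a test. In a tissue sampled at 1 time, 0 reads limit only the RNA present then, at these depths.

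Receptor and kinase genes come next. Ifnar1, a receptor chain, was at 1289.7, 1217 and 1112 in WT, 1299.8, 1149.8 and 1185 in Cas9 and 1382, 1185 and 1559.6 in GCas9 of set A, and Ifnar2 at 244, 251 and 272, 401, 291 and 349 and 309, 276 and 435. Ifnar1 varied little in set A, from 1112 to 1560, unlike the members. Over the 9 receptor and kinase genes the median log2 difference was 0.10 for Cas9 against WT and 0.18 for GCas9 against WT. In set B it was 0.04, 0.02 and -0.03 over the 8 genes tested, in the order Cas9 against GFP, GCas9 against GFP and GCas9 against Cas9. By limma and edgeR 0 of 9 passed in each comparison of set A and 0 of 8 in set B, where at most 0.00628% of all genes did. The counts by DESeq2 were also 0, where at most 1.37% of all genes passed. It gave no adjusted p for 7 of the 9 in GCas9 against Cas9 of set A. At an unadjusted p below 0.05 limma gave 3 of 9 higher in Cas9 than WT (6.17% of all genes). They were Il10rb (0.62 ± 0.26), Ifnar2 (0.43 ± 0.18) and Ifngr1 (0.34 ± 0.15). Each had no overlap between the groups, as had 10.7% of all genes in that direction. Il10rb, a chain shared by the type III interferon receptor, was at 121, 136 and 116 in WT and 252, 140.03 and 198 in Cas9. Ifnlr1, the other chain of that receptor, differed most from WT in Cas9 by value (0.77 ± 0.85), at 7.70, 7.76 and 12.9 in WT and 26.00, 4.93 and 31.4 in Cas9, where the groups overlapped. The unadjusted count was 0 in GCas9 against WT (4.44%), 1 higher in GCas9 than Cas9 of set A (2.38%), 1 lower in GCas9 than GFP (2.76%), and 0 in the other comparisons of set B.

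Of the transcription factors of the pathway outside the member list, Irf1, more a target of interferon gamma, was at 84.7, 118 and 106 in WT, 385, 133 and 322 in Cas9 and 219, 153 and 1198 in GCas9 of set A. Irf1 differed from WT by 1.31 ± 0.70 in Cas9 and by 1.74 ± 0.70 in GCas9 (SE, n = 3 and 3), and passed the adjusted threshold of limma in neither.

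Genes that sense nucleic acid and start interferon production (13 of 14 tested in set A, 11 in set B) had medians of 0.60 for Cas9 and 0.74 for GCas9 against WT, and -0.11, -0.20 and -0.19 in set B. By limma and edgeR 0 passed, where at most 0.00628% of all genes did, as by DESeq2 (at most 1.37%). DESeq2 gave no adjusted p for the 13 in GCas9 against Cas9 of set A. At an unadjusted p below 0.05 limma gave 2 of 13 higher in Cas9 (6.17% of all genes) and 3 in GCas9 (4.44%) than WT, with 0 in GCas9 against Cas9 of set A and 0 in set B. Tlr7, a sensor of single-stranded RNA, differed from WT by 1.04 in Cas9 and 1.30 in GCas9. The inhibitors of the pathway had medians near 0 (0.07 and -0.03 against WT over 9 of 10 tested, and -0.05, -0.08 and -0.03 in set B). By limma and edgeR 0 inhibitors passed (at most 0.00628% of all genes did), and DESeq2 passed 1 in GCas9 against WT (adjusted p = 0.034, where 1.37% of all genes passed). DESeq2 gave no adjusted p for 8 of the 9 in GCas9 against Cas9 of set A. At an unadjusted p below 0.05 limma gave 1 of 9 higher in Cas9 (6.17% of all genes) and 2 in GCas9 (4.44%) than WT. In set B it gave 2 lower in Cas9 than GFP (3.01%), Socs3 (-1.14 ± 0.52) and Irf2bp1 (-0.24 ± 0.09), and 1, Irf2bp1, higher in GCas9 than Cas9 (2.27%). Socs1, which blocks the Jak kinases and is itself interferon-induced, was the clearest exception by value, at 5.77, 6.03 and 7.91 in WT, 24.96, 18.7 and 20.2 in Cas9 and 17.3, 16.2 and 112 in GCas9 of set A. By limma its differences from WT were 1.56 ± 0.66 in Cas9 (adjusted p = 0.41) and 2.13 ± 0.66 in GCas9 (adjusted p = 0.72). For Socs1 the 6 libraries given a nuclease were all above WT.

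A wider list of 55 other interferon-responsive genes, 53 of them in the table, had limma medians of the same sign as the members in each comparison, nearer 0. For Cas9 against GFP this did not hold by edgeR and DESeq2, where the median of the list was -0.06 in both and that of the members 0.03. Its medians were 1.02 for Cas9 and 1.34 for GCas9 against WT and 0.41 for GCas9 against Cas9 in set A, and -0.08, -0.49 and -0.53 in set B over 52 genes tested. Against WT 48 and 53 of 53 were higher (49.1% and 49.9% of all genes). In set B 51 and 47 of 52 were lower in GCas9 than in GFP and in Cas9 (50.9% and 49.4% of all genes). In any comparison 0 passed limma or edgeR, where at most 0.00628% of all genes did. At an unadjusted p below 0.05 limma gave 3 of 53 in Cas9 (6.17% of all genes) and 13 in GCas9 (4.44%) higher than WT, and 2 higher in GCas9 than Cas9 of set A (2.38%). Set B held 3 of 52 lower in Cas9 than GFP (3.01%), 3 lower in GCas9 than GFP (2.76%) and 1 lower in GCas9 than Cas9 (1.57%). DESeq2 passed 1 in Cas9 (0.728% of all genes) and 9 in GCas9 (1.37%) against WT, with no adjusted p for 6 genes in either, for 51 in GCas9 against Cas9 of set A and for 5 in Cas9 against GFP. Cxcl10, a chemokine that draws T cells, was at 1.92, 0.86 and 2.97 in WT, 158, 13.8 and 157 in Cas9 and 69.04, 29.2 and 2449 in GCas9 of set A. In set B it was at 615, 381, 444 and 24.6 in GFP, 108, 398, 552 and 34.4 in Cas9 and 129, 459.8, 75.4 and 21.5 in GCas9. Cxcl10 differed from WT by 4.69 in Cas9 and 5.96 in GCas9, and Ifi204, a DNA sensor, by 3.21 and 4.36.

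Markers of immune cells that enter from blood were also higher in most libraries with high member levels, with exceptions in set B, and their part in the result was not tested. In bulk tissue fewer cells of a type and less RNA per cell cannot be told apart. Of the 12 T and natural killer cell markers, Cd4 was high in all WT libraries (3302 to 3899) and was left aside. The other 11 summed to 14.7 to 17.3 in WT, 193, 28.6 and 214 in Cas9, and 46.0, 41.1 and 944 in GCas9 of set A, in which Gzmb and Ncr1 had no read in WT. In set B the sum was 230.5, 73.5, 155 and 13.6 in GFP, 66.6, 149, 105 and 54.0 in Cas9, and 16.9, 284, 37.7 and 24.7 in GCas9. The B cell and antibody markers (7 of 8 in the table) summed to 465 to 584 in WT, 993 to 14867 in Cas9 and 1722 to 41688 in GCas9 of set A, mostly from Igkc and Ighm. In set B they summed to 1618 to 13386 in GFP, 3229 to 9563 in Cas9 and 695 to 17684 in GCas9. The library with the highest member level of set B, Cas9 replicate 3, had B cell marker sums (3817) below those of Cas9 replicate 1 (6195), whose member level was 6.75. Ly6c2, a marker of blood monocytes that interferon also raises, was at 1.92, 0 and 0 in WT, 70.7, 0 and 61.7 in Cas9 and 9.59, 3.24 and 758 in GCas9 of set A. In set B Ly6c2 was at 328, 206, 196 and 14.6 in GFP, 30.5, 192, 93.2 and 7.37 in Cas9 and 22.3, 311, 12.8 and 3.19 in GCas9, so it was high without a nuclease too. Border macrophage and monocyte markers (10 genes, with Ly6c2) summed to 171 to 256 in WT, 808 to 1859 in Cas9 and 685 to 3362 in GCas9 of set A, and to 513 to 1994 over set B. Of the 7 tested in set B, Ly6c2 was the lowest against GFP, at -1.36 in Cas9 and -2.24 in GCas9. In both comparisons 4 of the 7 were higher than GFP, with medians of 0.14 and 0.05. In GCas9 against Cas9, 1 was higher and 6 were lower (median -0.11). Neutrophil markers stayed at a sum of at most 13.1 in any library, with Ly6g at 0 in all 21.

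**Figure D5:**
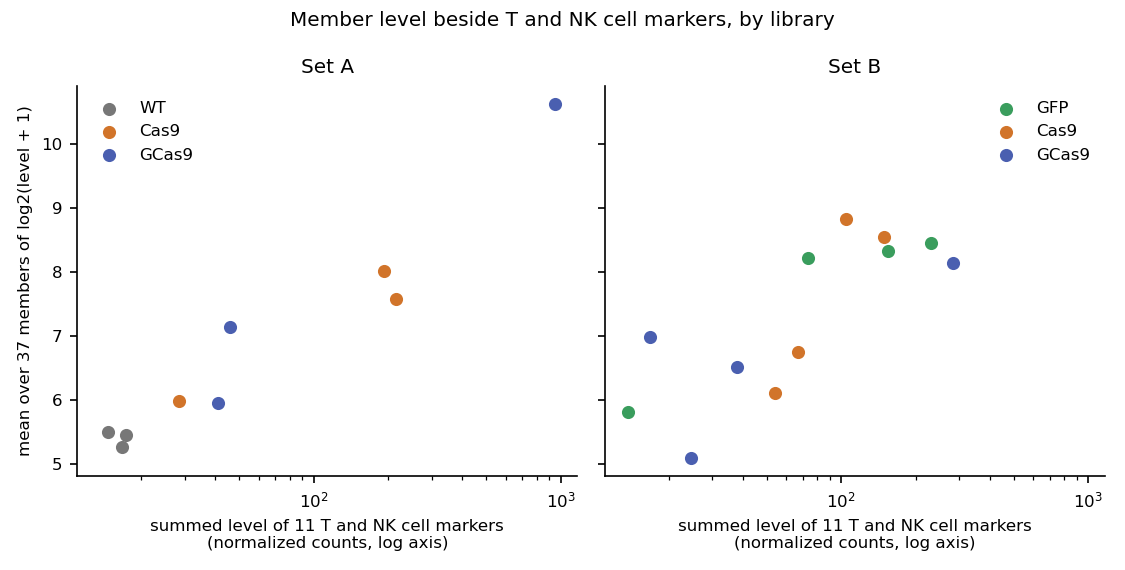
Each point is a library: the horizontal axis is the summed level of 11 T and natural killer cell markers on a log axis, the vertical axis the mean over 37 members of log2(level + 1). GCas9 replicate 3 of set A is highest on both axes (944 and 10.6), and in set B Cas9 replicate 3 has the highest member level (8.83) with a marker sum of 105.

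Resident glial markers moved too. Reactive astrocyte markers (8 genes, mostly Gfap) summed to 2558 to 3061 in WT, 14333, 7495 and 15085 in Cas9, and 8066, 7741 and 33317 in GCas9 of set A. In set B they ran from 3462 to 10030.3 in GFP, 4405 to 8140 in Cas9 and 2381 to 11670 in GCas9. Cas9 replicate 2 and GCas9 replicate 2 of set A therefore had astrocyte sums more than 2 times those of WT. Their mean member levels were 5.98 and 5.95, against 5.25 to 5.50 in WT. Microglial markers (10 genes) summed to 8685 to 10100 in WT, 10959 to 14093 in Cas9 and 10066 to 16141 in GCas9 of set A, and to 5128 to 9216 over set B. Endothelial markers (6 genes) summed to 5100.3 to 5855 in WT, 6194 to 7408 in Cas9 and 5458 to 5821 in GCas9 of set A. Oligodendrocyte markers (6 genes) summed to 182236 to 219489 in WT, 212756 to 354122 in Cas9 and 186715 to 201237 in GCas9 of set A. Their median log2 difference was 0.50 for Cas9 against WT, -0.04 for GCas9 against WT and -0.53 for GCas9 against Cas9. Over set B the endothelial sums ran from 1834 to 2460 and the oligodendrocyte sums from 95731 to 136148. The 6 plasmacytoid dendritic cell markers summed to 8422 to 10434 over set A and 2256 to 2855 over set B. Pacsin1, at a mean of 9116 in WT striatum, made up most of the WT sum, and Siglech was at 430. The sum thus hides the other markers. Of the 4 tested in set A, 3 were higher and 1 lower than WT, in Cas9 as in GCas9 (49.1% and 49.9% of all genes were higher). The median differences were only 0.29 and 0.16, and the largest 4.51 and 4.39. At an unadjusted p below 0.05 limma gave 1 higher in Cas9 (6.17% of all genes) and 1 in GCas9 (4.44%), and 0 passed (0.00628% of all genes did in each). Whether glia, incoming cells or both carried the member RNA was not tested.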

How the data were processed

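RNA was sequenced from 21 striatal libraries. Total RNA was made into cDNA with SMARTer chemistry and into libraries with Nextera XT, per the labels' protocols. Per the submitters' processing notes the tools include HTSeq, SAMtools, STAR (2.5.2b), R (3.3.3) and DESeq2, with no roles, and the genome build is GRCm38.p3; the annotation and the strand setting are not given in the sources used here. The authors deposited 1 table of normalized read counts (a signal unit: reads divided by a factor per library) for 41128 symbols, of which 13121 had no read. Whole reads were recovered from the steps of the values (100.0% of values whole within 0.001) and used for depth and for the count tests only. Size factors ran from 0.88 to 1.16 in set A and from 0.72 to 1.3 in set B. The sets were told apart by the running numbers in the titles and by their scaling.

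The members and gene lists were chosen with earlier results of these data known. All 37 members had a mean level of at least 10 over each set, Oas3 in set A only through GCas9 replicate 3 (8.35 without it). The main test was limma 3.58.1 (trend, R 4.3.3) on log2(normalized count + 1), fitted over the 3 groups of a set, two-sided, with Benjamini-Hochberg adjustment over all genes with a mean of at least 10 and a threshold of 0.05. Fold changes on this scale understate the change of low genes. Alternatives were a pseudocount of 0.5 or 5, no filter or a mean of 50, quantile and TMM scaling, edgeR 4.0.16 and DESeq2 1.42.0 on the recovered reads, array weights, a replicate block, a fit of 2 groups, and leaving out each library. The fits were tested on simulated data. Cas9 and GCas9 share their control libraries within a set. Named members were fixed by role, plus, per comparison, those with the smallest p and the largest and smallest difference. Pairing was checked by correlating the deviations of same-numbered libraries from their group means: every pair was over 0.1 for WT with GCas9 in set A (0.28, 0.11 and 0.20) and for Cas9 with GCas9 in set B (0.12, 0.33, 0.19 and 0.27), and for no other pair of groups. Promoters came from a RefSeq table (GRCm38.p6) and gene positions from GENCODE (GRCm38). One item of the gene lists is not reported here, and neither is the summary of its list.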

Additional observations from a re-analysis of the deposited data

Results flagged for a closer look

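In each 4-library group of set B the highest and lowest library was compared with its nearest neighbour, and a library was marked as standing apart where that gap was a larger part of the whole range than Dixon's 95% critical value; chance marks about 1 in 20 groups. Of 111 pairs of member and group, 22 were marked, and each was GFP replicate 4, as the lowest library. Members share these libraries, so the 22 are not separate events. The share of all genes marked by this rule is not given here. The count therefore does not show whether the members stand out from other genes in this library. The library held Isg15 at 41.9 against 452 to 627, Ifit1 at 136 against 1094 to 1454, Ifit3 at 188 against 1535 to 1721, Irf7 at 107 against 805 to 1005, Stat2 at 332 against 814 to 963 and Mx2 at 23.7 against 129 to 155 in the other 3 GFP libraries. It held Oasl1 at 5.46 against 94.7 to 129, Oasl2 at 136 against 1599 to 1978, Oas1a at 17.3 against 131 to 164, Oas2 at 7.28 against 81.03 to 129.6, Oas3 at 3.64 against 63.3 to 73.4 and Rsad2 at 41.9 against 206 to 268. Sensors and effectors were marked as well, with Usp18 at 83.7 against 489.9 to 569, Bst2 at 33.7 against 321 to 422, Ifih1 at 39.1 against 190.5 to 205, Ddx58 at 83.7 against 249 to 287 and Parp14 at 15.5 against 119.7 to 163. The last were Parp9 at 50.05 against 231 to 253, Dtx3l at 62.8 against 226 to 264, Ifi35 at 55.5 against 162 to 192, Ifi27l2a at 30.03 against 402 to 478 and Eif2ak2 at 48.2 against 159.9 to 184. The same library had the lowest T and natural killer cell marker sum of set B (13.6), and the part of that in the result was not tested.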

How the results depend on the processing

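Under the alternatives other than leaving out a library, 209 counts and medians stayed within 1.5 times the main count or within 1 SD between replicates, and 21 counts moved further. Of single members and lists, 844 values kept their direction and call (members) or stayed within that SD (lists), 7 passed the threshold only there and 3 turned. The members' median moved with the tool, though within that SD: for GCas9 against Cas9 in set A (0.65) it was -0.28 with array weights, 1.60 by edgeR and 1.62 by DESeq2, and for Cas9 against GFP (-0.09) it was 0.03 by both. Between sets (-1.51) it was -0.73 with array weights. Genes past the threshold in Cas9 against WT (1) numbered 0 with a pseudocount of 5, 2570 with array weights, 0 by edgeR, 116 by DESeq2 and 6 in a fit of 2 groups. For GCas9 against WT (1) they were 6 with array weights and 218 by DESeq2, and for GCas9 against Cas9 in set A (0) 932 and 5. Members past it numbered 20 with array weights in Cas9 against WT and 10 by DESeq2 in GCas9 against WT, and 0 under each other alternative run. In set B DESeq2 gave 10 genes for Cas9 against GFP and 41 for GCas9 against GFP, where array weights gave 12 and 2 groups 7. The difference between sets gave 1 gene with no filter. Within 100 bases 5 of 27 members held the ISRE core (18.5%, against 1.14% of all genes) and 1 the GAS core (3.70%, against 3.00%). The Isg15 difference turned to -0.38 with array weights for GCas9 against Cas9 in set A, and to 0.18 by edgeR and 0.18 by DESeq2 for Cas9 against GFP. The cause was not tested.

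With the replicate as a block, 2 genes passed in Cas9 against WT, 2 in GCas9 against WT and 5 in GCas9 against GFP, and 0 members in each comparison. The numbers meet the pairing criterion only for GCas9 against WT and for GCas9 against Cas9 in set B. The block changed no other call.

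Leaving out each library in turn, genes past the threshold ran from 0 to 7 in Cas9 against WT, 0 to 2 in GCas9 against WT and 0 to 1 in GCas9 against Cas9 of set A. They ran from 0 to 2 in Cas9 against GFP, 0 to 9 in GCas9 against GFP, and 0 to 1 for the difference between sets, with 0 for GCas9 against Cas9 in set B and 0 members in all 7. The members' median ran from 1.199 to 2.07, from 0.99 to 3.23 and from -0.61 to 1.70 in the comparisons of set A, from -0.79 to 0.38, from -1.45 to -0.48 and from -1.37 to -0.38 in those of set B, and from -2.44 to -0.22 between sets. For GCas9 against Cas9 in set A the lowest values are those without GCas9 replicate 3: Cmpk2 ran from -0.11 to 0.82, Ifi44 from -0.13 to 2.90, Oas1a from -0.11 to 2.19, Stat2 from -0.26 to 1.14, Xaf1 from -0.45 to 1.11 and Isg15 from -0.97 to 2.43. For Cas9 against GFP Zbp1 ran from -1.42 to 0.023, Bst2 from -0.64 to 0.74 and Isg15 from -1.05 to 0.57, lowest without GFP replicate 4 and highest without Cas9 replicate 4. Rsad2 ran from -0.77 to 0.074 in GCas9 against Cas9 of set B. Set B has fewer reads than set A, and members at a few reads, such as Oas3, are the least certain.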

Other observations

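Ifi44l, which lies beside Ifi44 in name and is induced by the same interferons, had no read in some libraries where Ifi44 had many. In set A Ifi44 had 83 reads in Cas9 replicate 1 and 60 in Cas9 replicate 3, and Ifi44l had 0 in both. In GCas9 the pair had 79 and 10 reads in replicate 1 and 1083 and 89 in replicate 3. Trim30d, a relative of Trim30a with near copies, was at 84.2 in Cas9 replicate 1 and 17.2 in Cas9 replicate 3, within the WT range of 15.4 to 22.7 in the latter. Xaf1 likewise was at 1144 in Cas9 replicate 1 and 362 in Cas9 replicate 3. The mean member levels of these libraries were 8.01 and 7.57, with Cas9 replicate 1 higher for 37 members. Their choroid plexus sums were 293401 and 2515, and the part of that in these values was not tested. These 3 genes were picked after their values were seen.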
